A study of Mus musculus with 4 samples.

Results

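The transcripts described here are 9 genes of the B cell lineage, chosen by symbol out of 55367 gene rows, in 4 mouse RNA-seq libraries from B16-F10 melanomas. They were Igkc, Jchain, Ighm, Igha and Mzb1, taken as genes of antibody-secreting plasma cells, and Cd79a, Cd79b, Ms4a1 and Pou2af1, taken as genes of B cells. Their levels in these same libraries were known when they were chosen, so their values are given as a description without a test. Of the 9 genes, 7 had at least 1 count, and 2, Igha and Mzb1, were at 0 counts in every library. Only 3, Igkc, Ighm and Cd79b, had enough counts to enter the comparison over all genes.

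Per the labels, tumors of the mouse melanoma line B16-F10 were dissociated and sorted for CD8, found on cytotoxic T cells, and CD45.2, found on leukocytes, and polyadenylated RNA was sequenced. The libraries fell into 2 labeled WT (WT 1 and WT 2) and 2 labeled KO (KO 1 and KO 2), and the labels called the cells CD45.2+. The series concerns Satb1, whose protein folds chromatin into loops in T cells. Its design text names mice with a floxed Satb1 gene and either ThPOK-cre, active in CD4+ T cells, or E8I-cre, active in CD8+ T cells, but the sample labels did not say which Cre the libraries labeled KO carried. The study's methods describe adult mice of mixed sexes, subcutaneous inoculation of the tumor cells and C57BL/6 mice as WT, and the labels gave no age or time. Nothing stated that the libraries came from separate animals, so p-values measure only the spread between libraries.

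Gene counts ranged from 4017875 to 5382915 per library, so that 3 counts corresponded to 0.557 to 0.747 CPM (a gene's counts scaled to the total over all gene rows of its library). Where 4 values stand in a row without names, WT 1 and WT 2 come first, then KO 1 and KO 2. Satb1 itself went against the labels, since WT 1 had 7 counts and WT 2 had 5, while KO 1 had 131 and KO 2 had 55 (log2 fold change 3.36, SE 0.79, edgeR adjusted p = 0.115), so WT and KO are used below as labels only. The markers went against the CD8 part of the sort label too. The 10 T cell markers together held 73.2 and 121 CPM in WT 1 and WT 2, and 2414 and 1297 CPM in KO 1 and KO 2. The 10 macrophage or monocyte markers held 22090 to 38270 CPM, far above the T cell markers in all 4 libraries. Xist had 435, 216, 0 and 3 counts, while the Y-linked gene Ddx3y had 0, 0, 188 and 81, so sex and group cannot be told apart.

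A B cell reads antigen through a receptor made of immunoglobulin heavy and light chains, with the signaling chains Cd79a and Cd79b at its side. The variable end of each chain is encoded by a V segment joined to smaller segments during B cell development, and the constant end by genes such as Ighm for the heavy chain of IgM, Igha for that of IgA and Igkc for the kappa light chain. When a B cell becomes a plasma cell it makes these chains for secretion, in very large amounts, and turns down surface genes such as Ms4a1, which encodes CD20. The joining chain Jchain links secreted IgM or IgA into polymers, and Mzb1 encodes a chaperone of the endoplasmic reticulum that helps antibody assembly. Pou2af1 encodes a coactivator of the octamer-binding factors that act at immunoglobulin promoters. RNA of the mu constant region can also be made from a heavy chain locus that has not completed rearrangement.

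The kappa light chain gene Igkc was far higher in KO 1 than in the other libraries. Igkc (ENSMUSG00000076609.2, chromosome 6, 70726435 to 70726966, plus strand of GRCm38/mm10) is annotated as an immunoglobulin constant gene, and the first 300 of its 320 coding bases are printed because it carried most of the light chain reads:
Igkc: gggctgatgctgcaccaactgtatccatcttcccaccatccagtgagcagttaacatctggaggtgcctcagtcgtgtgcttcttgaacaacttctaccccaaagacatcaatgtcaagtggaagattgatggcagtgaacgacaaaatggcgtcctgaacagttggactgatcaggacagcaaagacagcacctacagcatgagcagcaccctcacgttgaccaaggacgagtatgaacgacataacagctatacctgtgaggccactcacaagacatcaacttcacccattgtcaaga
The sequence is the reference one of GENCODE M21. WT 1 had 4 counts of Igkc, WT 2 had 2, KO 1 had 998 and KO 2 had 29. In CPM this was 0.996 in WT 1 (exact Poisson 95% interval 0.271 to 2.55), 0.469 in WT 2 (0.0568 to 1.70), 223 in KO 1 (209 to 237) and 5.39 in KO 2 (3.61 to 7.74). KO 1 thus stood far above the other libraries, KO 2 lay above both libraries labeled WT, and the intervals of WT 1 and WT 2 overlapped. KO 1 exceeded KO 2 by 41.4-fold (exact interval 28.6 to 62.1), so the spread between the libraries labeled KO was itself large. The group means were 0.733 ± 0.372 CPM (SD, n = 2) for WT and 114 ± 154 CPM (SD, n = 2) for KO, and the fitted log2 fold change of 6.84 (SE 1.56) became 2.57 without KO 1. Of the summed CPM of Igkc, 97.0% lay in KO 1, against a median of 29.0% over the 11465 genes with at least 50 counts. A share at least this high was reached by 7 of those genes, among them Igkc itself and Jchain, also a chosen gene. Igkc was chosen with its values in these libraries known, so this rank is a description and not a test.

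**Figure D1:**
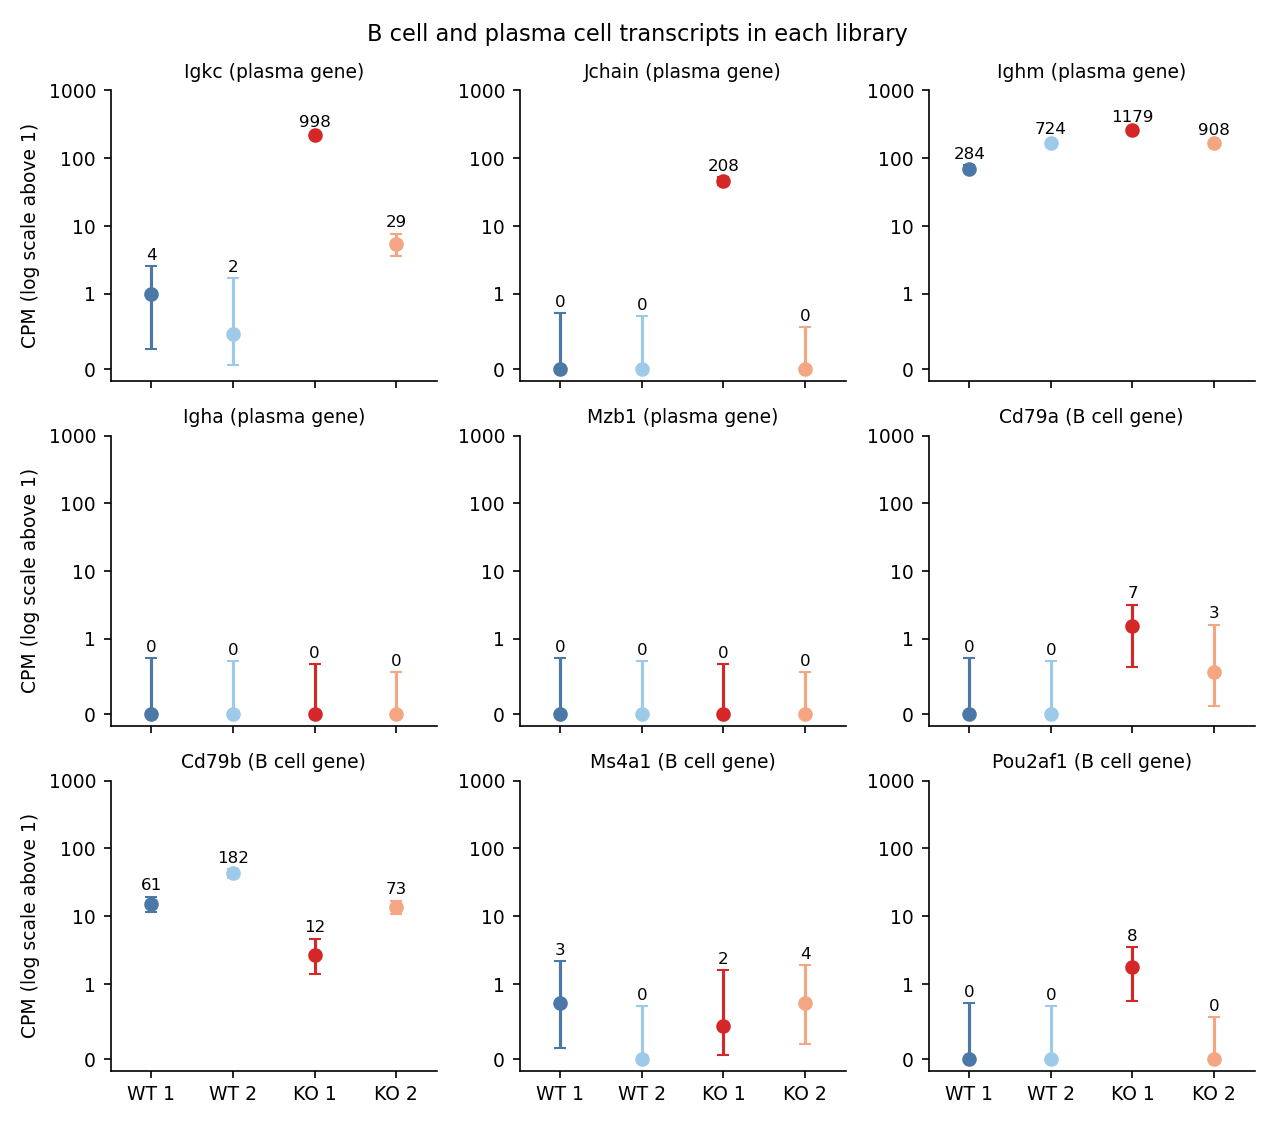
Level of each of the 9 genes (one panel each) in WT 1, WT 2, KO 1 and KO 2, in CPM on an axis that is logarithmic above 1 and linear below. Points are single libraries, bars are exact Poisson 95% intervals (for 0 counts, the limit of 3 counts), and the number above each point is its read count: Igkc reached 998 and Jchain 208 counts in KO 1, while Ighm had 284 to 1179 counts in every library.

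Jchain followed the same library and no other. Jchain (ENSMUSG00000067149.6, chromosome 5, 88519809 to 88527891, minus strand) had 208 counts in KO 1, or 46.4 CPM (exact Poisson interval 40.3 to 53.2), and 0 counts in WT 1, WT 2 and KO 2. A count of 0 allowed up to 0.747, 0.704 and 0.557 CPM in those libraries. The measured level in KO 1 was 62.2 times this limit for WT 1, 65.9 times for WT 2 and 83.3 times for KO 2. These ratios leave out the counting error of KO 1. The groups overlapped, because KO 2 was at 0 as were both libraries labeled WT. With 208 counts in a single library, Jchain did not enter the comparison over all genes.

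The mu heavy chain gene Ighm was abundant in every library. Ighm (ENSMUSG00000076617.9, chromosome 12, 113418558 to 113422730, minus strand) had 284 and 724 counts for WT 1 and WT 2, and 1179 and 908 for KO 1 and KO 2. Its level was 70.7 CPM in WT 1 (62.7 to 79.4), 170 in WT 2 (158 to 183), 263 in KO 1 (248 to 279) and 169 in KO 2 (158 to 180). By CPM, WT 2 and KO 2 could not be told apart (ratio 1.01, exact interval 0.912 to 1.11), KO 1 was highest and WT 1 lowest, and the groups overlapped. CPM leaves out the TMM scaling factors of the fit, 0.951 for WT 2 and 1.07 for KO 2. In each library Ighm lay above 86.2% to 96.7% of the genes with a count. The mean was 120 ± 70.2 CPM for WT and 216 ± 66.8 CPM for KO (SD, n = 2 each), with a log2 fold change of 0.53 (SE 0.49) that became 0.07 without WT 1 and 1.13 without WT 2.

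Kappa chain and mu chain RNA were not in a fixed proportion. Per kilobase of exon, the ratio of Igkc to Ighm counts was 0.0499 in WT 1 (exact interval 0.0135 to 0.129), 0.00979 in WT 2 (0.00118 to 0.0355), 3.0 in KO 1 (2.76 to 3.27) and 0.113 in KO 2 (0.0754 to 0.164). Only in KO 1 did the light chain exceed the heavy chain by length. WT 2 had 724 Ighm counts beside 2 Igkc counts, whereas KO 1 had 1179 beside 998. The intervals of WT 1 and WT 2 overlapped, as did those of WT 1 and KO 2.

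**Figure D2:**
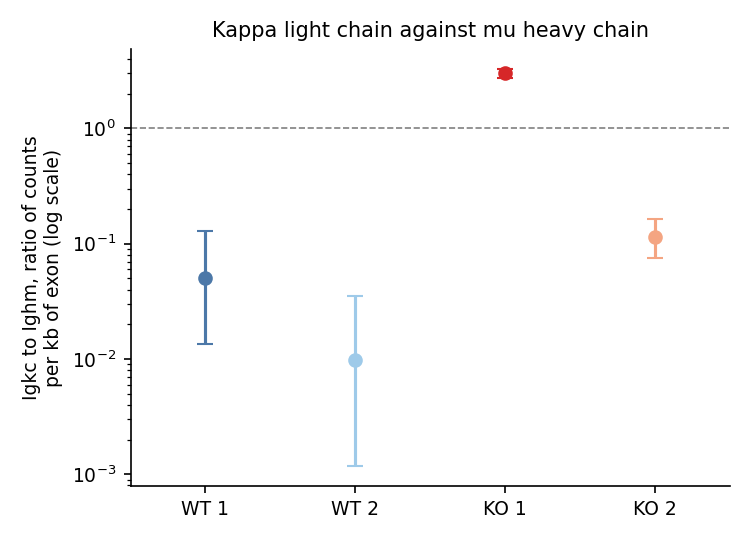
Ratio of Igkc to Ighm counts per kilobase of exon in each library, on a logarithmic axis, with exact 95% intervals from the counts and a dashed line at a ratio of 1. The ratio was 3.0 in KO 1 and 0.113 or lower in the other libraries.

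No other heavy chain class reached more than a few counts. Igha (ENSMUSG00000095079.6, chromosome 12, 113254830 to 113260236, minus strand) was at 0 counts in all libraries, which allowed at most 0.747, 0.704, 0.670 and 0.557 CPM. The IgG genes Ighg1, Ighg2b, Ighg2c and Ighg3 were at 0 counts as well. Ighd, the heavy chain of IgD, had 1, 3, 4 and 8 counts, and Ighe, that of IgE, had 2 counts in KO 2 only. Ighm thus took 99.6%, 99.6%, 99.7% and 98.9% of heavy chain constant counts, with exact Clopper-Pearson lower bounds of 98.1%, 98.8%, 99.1% and 98.0%. These shares rest on the 0 counts of the IgG and IgA genes as deposited, and the annotation behind that counting is not given in the sources used here. Among light chain constant counts of KO 1, Igkc took 998 of 1008, or 99.0% (98.2 to 99.5), beside 8 counts of the lambda gene Iglc2 and 1 each of Iglc1 and Iglc3. The other libraries had 2 to 29 light chain constant counts, too few to set a share against that of KO 1.

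The V segments were examined next, since the 9 genes do not include them, although a V segment and its constant gene are parts of the same transcript. The tables listed 346 V segments, of which 24 had at least 1 count. KO 1 had 303 V segment counts, against 1 in WT 1, 5 in WT 2 and 8 in KO 2. In KO 1, 261 counts fell on 8 kappa V segments, 38 on 9 heavy chain V segments and 4 on Iglv1. The V segments of KO 1 and those of the other libraries had no segment in common: WT 1 and WT 2 had 1 count each of Ighv1-58, WT 2 had 4 of Igkv12-46, and KO 2 had 3 of Igkv3-12, 2 of Igkv1-135, 2 of Igkv10-96 and 1 of Igkv4-62. V segments resemble one another, and reads that fit several of them may not be counted, so counts of single segments are uncertain.

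In KO 1 the leading kappa segment was Igkv8-30 (ENSMUSG00000076577.2, chromosome 6, 70117061 to 70117620, minus strand) with 111 of 261 kappa V counts, or 42.5% (exact Clopper-Pearson interval 36.4 to 48.8). Igkv9-120 had 38 and Igkv4-57 had 36 counts, followed by Igkv4-59 with 23, Igkv3-10 with 20, Igkv6-25 with 19, Igkv1-117 with 13 and Igkv6-23 with 1. The reference coding sequence of the leading segment and of the most alike pair of the 8 kappa segments detected in KO 1 show how near such segments can be, with the bases that differ within the pair in capitals and the first 300 coding bases given for each:
Igkv8-30: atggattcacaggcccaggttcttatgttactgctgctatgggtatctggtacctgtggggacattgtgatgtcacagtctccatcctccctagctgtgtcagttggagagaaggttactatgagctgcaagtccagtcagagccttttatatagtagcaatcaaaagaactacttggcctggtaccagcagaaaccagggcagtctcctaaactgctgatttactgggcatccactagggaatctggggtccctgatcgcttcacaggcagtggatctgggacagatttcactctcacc
Igkv4-57: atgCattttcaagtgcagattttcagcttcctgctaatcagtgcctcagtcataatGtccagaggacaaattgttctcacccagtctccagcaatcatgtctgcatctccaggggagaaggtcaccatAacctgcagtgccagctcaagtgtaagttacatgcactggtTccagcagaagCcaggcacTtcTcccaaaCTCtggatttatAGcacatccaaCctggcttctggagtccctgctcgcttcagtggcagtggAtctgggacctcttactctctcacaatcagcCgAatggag
Igkv4-59: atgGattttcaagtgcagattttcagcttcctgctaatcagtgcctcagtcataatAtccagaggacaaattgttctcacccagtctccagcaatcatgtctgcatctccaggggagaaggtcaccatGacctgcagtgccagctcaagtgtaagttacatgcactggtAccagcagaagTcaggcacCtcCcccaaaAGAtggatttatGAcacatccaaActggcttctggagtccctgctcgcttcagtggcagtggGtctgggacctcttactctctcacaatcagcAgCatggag
Igkv4-57 (chromosome 6, 69575975 to 69576500) and Igkv4-59 (chromosome 6, 69438218 to 69438757), both on the minus strand, were identical at 333 of 352 aligned bases (94.6%), and 16 of the 19 differences lie in the stretch shown. The other pairs ranged from 57.3% to 91.6%, the latter for Igkv6-23 and Igkv6-25. Igkv8-30 was 75.4% identical to Igkv6-25, its nearest among the detected segments. These are the reference sequences of GENCODE M21, not sequences read from the libraries.

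The heavy chain V counts of KO 1 were fewer and more even. Ighv1-77 had 10 of 38 counts (26.3%, exact interval 13.4 to 43.1), Ighv7-3 had 8, Ighv1-64 had 6 and Ighv1-76 had 5, and the other 5 segments had 1 to 3 each. The interval of Ighv1-77 overlapped that of Igkv8-30 among kappa segments.

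**Figure D3:**
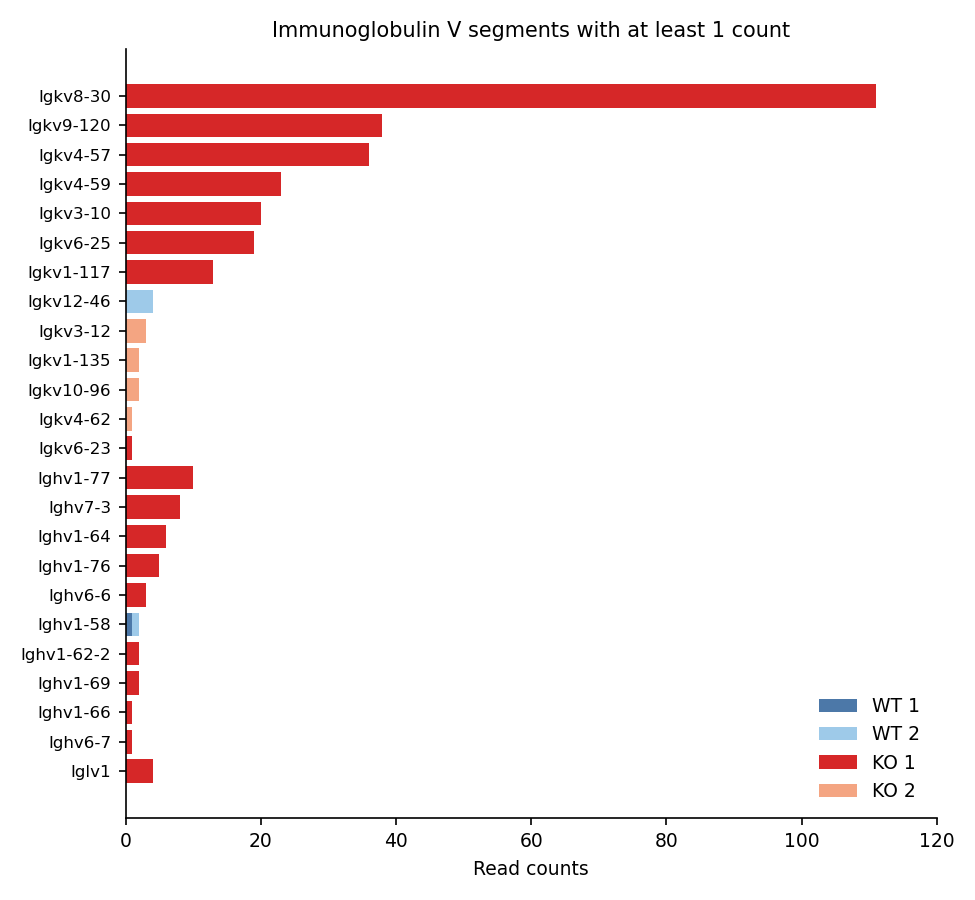
Read counts of the 24 immunoglobulin V segments with at least 1 count, as bars stacked by library, with kappa segments above, then heavy chain segments and the lambda segment Iglv1. Nearly all counts came from KO 1, where Igkv8-30 had 111, and the segments of the other libraries were different ones with at most 4 counts in a library.

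Mzb1, the chaperone gene of antibody-secreting cells, was listed at 0 counts in all 4 libraries, KO 1 included. In GENCODE M21, 57.2% of the exonic bases of Mzb1 are shared with an overlapping gene on the same strand, and HTSeq sets aside reads that fall on more than 1 gene as ambiguous, whereas no other of the 9 genes shares exonic bases with another gene. The remaining exonic bases of Mzb1 overlap no other gene. Whether the annotation used for counting holds this overlap is not given in the sources used here, and its part in the 0 counts was not tested.

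Among the signaling chains of the B cell receptor, Cd79b was present in every library and Cd79a was nearly absent. Cd79b (ENSMUSG00000040592.11, chromosome 11, 106311341 to 106314762, minus strand) had 61 and 182 counts for WT 1 and WT 2, and 12 and 73 for KO 1 and KO 2. This was 15.2 CPM in WT 1 (11.6 to 19.5), 42.7 in WT 2 (36.7 to 49.4), 2.68 in KO 1 (1.38 to 4.68) and 13.6 in KO 2 (10.6 to 17.1). WT 2 was highest and KO 1 lowest, the library in which Igkc and Jchain were highest, while the intervals of WT 1 and KO 2 overlapped although both libraries labeled KO lay below both labeled WT. The means were 29.0 ± 19.5 CPM (SD, n = 2) and 8.12 ± 7.69 CPM (SD, n = 2), with a log2 fold change of -2.07 (SE 0.80) that became -1.32 without KO 1, -3.78 without KO 2 and -1.30 without WT 2.

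Cd79a (ENSMUSG00000003379.7, chromosome 7, 24897381 to 24902197, plus strand) had 0, 0, 7 and 3 counts. Both chains are needed for a receptor on the surface. Per kilobase of exon, and taking 3 counts for Cd79a, measured Cd79b was 20.7 times as high as Cd79a in WT 1 and 61.8 times in WT 2. These values leave out the counting error of Cd79b. The ratio was 24.8 in KO 2 (exact interval 8.15 to 123) and 1.75 in KO 1 (0.634 to 5.23), so in KO 1 the chains did not differ beyond counting error.

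The remaining B cell genes were near the limit of detection. Ms4a1 (ENSMUSG00000024673.9, chromosome 19, 11249675 to 11266241, minus strand) had 3, 0, 2 and 4 counts, or at most 0.747 CPM, and no library stood out. Pou2af1 (ENSMUSG00000032053.8, chromosome 9, 51213708 to 51240080, plus strand) had 8 counts in KO 1 and 0 in the other libraries. Its level in KO 1, 1.79 CPM (0.771 to 3.52), had a lower bound just above the limits that 0 counts allowed in the others, 0.747, 0.704 and 0.557 CPM.

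Set against each other, the plasma cell genes held 288, 726, 2385 and 937 counts, and the B cell genes 64, 182, 29 and 80. The summed level of the plasma cell genes was 71.7, 170, 532 and 174 CPM in this order, and that of the B cell genes 15.9, 42.7, 6.47 and 14.9 CPM. KO 1 was highest for the first sum and lowest for the second. The second sum is mostly Cd79b, with 61, 182, 12 and 73 counts. Cd79a and Pou2af1, near the limit of detection, were highest in KO 1 with 7 and 8 counts, and Ms4a1 had 3, 0, 2 and 4. The plasma cell genes took 81.8% of the counts on the 9 genes in WT 1 (exact Clopper-Pearson interval 77.4 to 85.7), 80.0% in WT 2 (77.2 to 82.5), 98.8% in KO 1 (98.3 to 99.2) and 92.1% in KO 2 (90.3 to 93.7). These shares rest on Ighm, which B cells express too. With Ighm moved to the B cell genes, the shares became 1.14%, 0.220%, 49.96% and 2.85%, and the B cell sum became 86.6, 213, 270 and 184 CPM. KO 1 was then highest for both sums. In a bulk library, fewer cells of a type and less RNA per cell cannot be told apart.

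**Figure D4:**
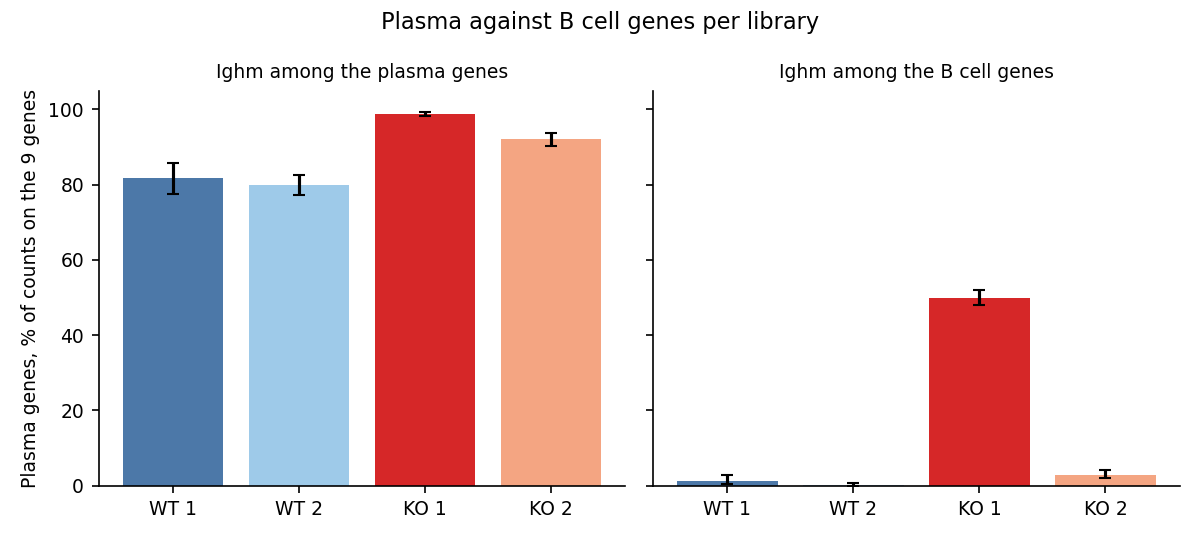
Share of the counts on the 9 genes that fell on plasma cell genes, in percent per library with exact Clopper-Pearson 95% intervals, with Ighm taken as a plasma cell gene (left) or as a B cell gene (right). Moving Ighm changed the share from 80.0% to 0.220% in WT 2 and from 98.8% to 49.96% in KO 1.

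The comparison of KO with WT over all genes asked which transcripts differed between the genotypes as labeled. Of 11837 genes tested with the edgeR quasi-likelihood test, 68 (0.574%) passed an adjusted p of 0.05, with 0.549% of genes higher for KO and 0.0253% lower. Before adjustment 1619 genes (13.7%) had a p under 0.05, and DESeq2 called 416 genes (3.51%), 2.96% higher and 0.558% lower. Counts of list genes below are read against these shares. Among the 3 tested B cell and plasma cell genes 0 passed in edgeR and 1, Igkc, in DESeq2, and since their values chose them, nothing is read from these counts. The CPM ranges of the groups were apart for Igkc (higher for KO) and Cd79b (lower for KO), as they were for 48.4% of all genes tested (35.9% higher and 12.6% lower). Those of Cd79a, too low to be tested, were apart as well, higher for KO with 0, 0, 7 and 3 counts. Without a filter on low counts, 583 of 21241 genes (2.74%) passed, 2.38% higher and 0.367% lower.

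Other genes of the lineage, from lists drawn up with earlier results of these data known, mostly had few counts or did not pass. The list of 20 other B cell genes had 16 with a count and 6 tested, of which 0 passed in edgeR (1 at an unadjusted p under 0.05) and 1, Cd72, in DESeq2, with a median log2 fold change of -0.76 beside 0.05 over all genes tested. Its most abundant genes were Cd72, Cd37 and Swap70. Cd72, an inhibitory receptor of B cells that other cells can express, had 1290, 1501, 308 and 916 counts and a log2 fold change of -1.80 (SE 0.55, edgeR adjusted p = 0.216). Cd37 had a log2 fold change of -0.78 and Swap70 one of -0.56. Other genes of the list, named after their values were seen, differed in level and pattern. Cd22, an inhibitory receptor, had 100, 43, 16 and 121 counts, and the octamer-binding factor Pou2f2 had 36, 55, 45 and 26. Pax5, the factor that maintains B cell identity, had 0 counts in all libraries, which allowed at most 0.747 CPM. Ebf1, an early B cell factor, had 7 counts and Blk, a B cell kinase, 6, both in KO 1 only, and Cxcr5, a follicle homing receptor shared with T cells, had 28 there and 4, 2 and 0 in WT 1, WT 2 and KO 2.

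The list of 15 other plasma cell genes had all 15 with a count and 10 tested, of which 0 passed in edgeR (3 at an unadjusted p under 0.05) and 0 in DESeq2, with a median log2 fold change of 0.32. The most abundant were Xbp1, Creld2 and Sec11c. Xbp1, the factor that builds the secretory machinery, had 986, 1115, 893 and 1643 counts and a log2 fold change of -0.33 (SE 0.46, edgeR adjusted p = 0.792). Sec11c, a subunit of the signal peptidase, had 301, 405, 1038 and 450 counts and was highest in KO 1, with a log2 fold change of 0.53 (SE 0.51, edgeR adjusted p = 0.678). Creld2, an endoplasmic reticulum stress gene, had 352, 548, 818 and 703 counts. The surface marker Sdc1 and the factor Irf4, named after their values were seen, differed in their pattern. Sdc1 was highest in WT 1 with 659 counts and lowest in KO 1 with 80. Irf4 had 147 counts in KO 1 and 63 in KO 2 against 21 and 19 (log2 fold change 1.82, SE 0.66, edgeR adjusted p = 0.276). Ell2 had 58, 70, 186 and 292 counts and Trp53inp1 had 5, 10, 71 and 27. Both were higher for KO, with an unadjusted edgeR p under 0.05 as for Irf4. Of the 10 tested, 6 had a positive and 4 a negative log2 fold change. Too low to be tested, Fkbp11 had 0, 1, 25 and 9 counts and Pycr1 had 3, 4, 25 and 6. Eaf2 had 0, 0, 1 and 8, Derl3 0, 8, 5 and 3, and Tnfrsf17 0, 2, 0 and 0.

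None of the 9 other immunoglobulin constant genes and none of the 346 V segments had enough counts for the comparison. Without a filter on low counts, 3 V segments passed, Igkv8-30, Igkv9-120 and Igkv4-57, each with counts in KO 1 alone. Of 14 genes that relay the B cell receptor signal, many of which myeloid cells also use, all 14 were tested and 0 passed in edgeR (2 at an unadjusted p under 0.05) and 0 in DESeq2, with a median log2 fold change of -0.62. The most abundant were Ptpn6, Lyn and Pik3ap1, with log2 fold changes of -0.60, -0.84 and -0.91. Of 7 germinal center genes, 5 had a count, 3 were tested and 0 passed in edgeR (0 at an unadjusted p under 0.05) and 0 in DESeq2. These were Bcl6, Fas and S1pr2, with log2 fold changes of -0.04, 0.84 and -1.48.

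**Figure D5:**
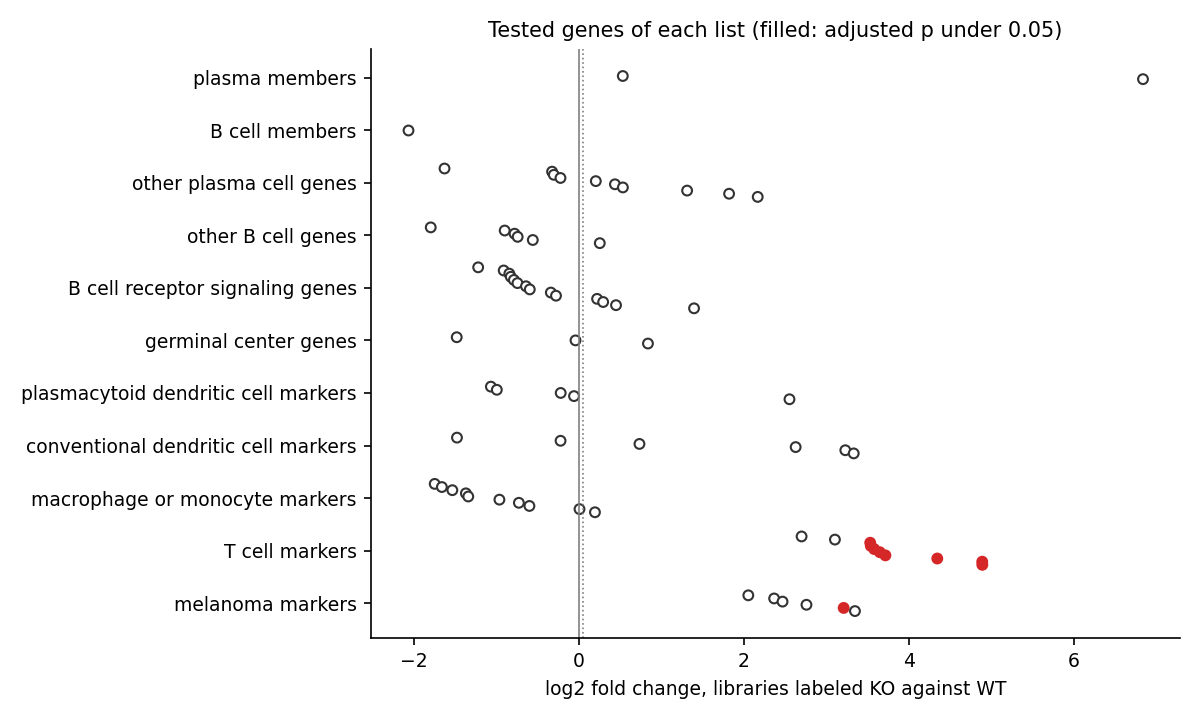
Log2 fold change of the libraries labeled KO against WT for each tested gene of the lists, 1 point per gene, filled where the edgeR adjusted p was under 0.05 (the erythroid list, with 1 gene tested, is not drawn). Solid and dotted lines mark 0 and the median of all genes. The lists of B cell and plasma cell genes held no filled point, whereas 8 of 10 T cell markers and 1 of 6 melanoma markers were filled.

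Marker sums of other cells also differed between the libraries, and their part in these results was not tested. The T cell markers, all 10 with a count, had their highest sum in KO 1, the library where Igkc, Jchain and Ighm were highest, and 8 of them rose with the KO label in edgeR (10 at an unadjusted p under 0.05) and 10 in DESeq2. Their median log2 fold change was 3.61, and those with the smallest p were Cd8a (4.34), Lck (4.89), Cd3e (3.65), Cd3d (3.53) and Trbc2 (4.89), beside Cd3g (3.58) among the most abundant. The 6 melanoma markers held 188, 230, 2213 and 1232 CPM, and 1, Tyrp1, passed in edgeR (6 at an unadjusted p under 0.05) and 5 in DESeq2, all higher for KO. The log2 fold change was 3.21 for Tyrp1, 2.76 for Dct and 2.37 for Pmel, the most abundant of them.

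Markers of dendritic cells and macrophages differed in both directions. The 8 conventional dendritic cell markers held 102, 164, 273 and 146 CPM, and 0 passed in edgeR (4 at an unadjusted p under 0.05) and 2 in DESeq2. Their median log2 fold change was 1.68, while the most abundant, Itgax, Cd209a and Batf3, had values of -0.22, 2.63 and -1.48. The 10 plasmacytoid dendritic cell markers, a cell type that can carry some B cell transcripts, held 1432, 733, 406 and 984 CPM, and 0 passed in edgeR (0 at an unadjusted p under 0.05) and 0 in DESeq2. Of the 5 tested, 4 had a negative log2 fold change, with a median of -0.22. Most of the sum was Irf7 (-0.996) and Bst2 (-1.07), which other cells express under interferon, followed by Tlr7 (-0.22), while the defining marker Siglech had 0, 2, 2 and 0 counts and Ccr9 had 1, 0, 3 and 2. Pacsin1 of the same list, named after its values were seen, had 0, 8, 33 and 35 counts (log2 fold change 2.55, SE 1.15, edgeR adjusted p = 0.371). The 10 macrophage or monocyte markers had their lowest sum in KO 1, where Cd79b was lowest too, at 22090 CPM against 26960 to 38270 in the others. Of the 10, 8 had a negative log2 fold change, with a median of -1.15, and were lowest in KO 1. Among the most abundant, C1qb held 6265, 8764, 2094 and 5021 CPM (log2 fold change -1.37) and Apoe 3404, 3834, 1887 and 3529 CPM (-0.73). Lyz2, the most abundant of all, was highest in KO 1 with 7310, 13500, 15140 and 10940 CPM (0.01), and Mrc1, named after its values were seen, was lowest in WT 1. Of these markers 0 passed in edgeR (3 at an unadjusted p under 0.05) and 2, lower, in DESeq2. The 5 erythroid markers, a sign of blood, held 5.72, 0.704, 0 and 42.5 CPM, mostly Hba-a1, Hbb-bs and Hba-a2, with 94, 58 and 48 counts in KO 2. Of these 5, 1 was tested, and it did not pass in edgeR (0 at an unadjusted p under 0.05) or in DESeq2.

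Genes with a like pattern were sought by the share of each gene's summed CPM in each library, among genes with at least 50 counts, the difference being the total over the 4 libraries in percentage points. For the plasma cell sum, with 7.56%, 18.0%, 56.1% and 18.4%, the nearest were Gm9392, Uso1, Fcho2, Atad2b and Mndal, with differences of 0.661 to 3.03 points. For the B cell sum, which is mostly Cd79b, with 19.9%, 53.4%, 8.09% and 18.6%, they were Olfml3, Gpr84, Slc13a3, Smagp and Tlr12, with differences of 6.98 to 11.1 points. The plasma cell sum is mostly Ighm and Igkc, and none of the 5 genes nearest to it is on the lists of B cell or plasma cell genes. The 7 genes with at least as large a share in KO 1 as Igkc were, besides Igkc itself, Jchain and Igkv8-30, the genes Islr, Ptx3, Serpina3n and Svep1. These 4 had 55 to 67 counts in KO 1 and at most 1 in any other library, and were named after their values were seen.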

How the data were processed

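Polyadenylated RNA of cells sorted from B16-F10 tumors, in 2 libraries labeled WT and 2 labeled KO by their titles, was sequenced by the study. The authors deposited 1 table of read counts per gene for each library, without normalization. Per the submitters' processing notes and the study's methods, reads were aligned to mm10 with HISAT2 2.1.0 and counted with HTSeq 0.11.0. The annotation and the strand setting of the counting are not given in the sources used here. Rearranged or mutated V segments can align poorly to a reference genome, and how this bore on the immunoglobulin counts was not tested.

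The members and the gene lists were chosen with earlier results of these data known. Table rows without a gene name did not enter library sizes (reads not aligned 30.3% to 44.2%, outside any feature 22.3% to 29.5% of each table). CPM was computed on the sum of the gene rows. Intervals are exact Poisson, exact conditional or exact Clopper-Pearson at the 95% level, a count of 0 was given a limit of 3 counts. These cover counting error only, as the reads carried no molecular identifiers and copies made by PCR count as separate reads. KO was compared with WT in R 4.3.3 with edgeR 4.0.16 (filterByExpr with at least 10 counts scaled to library size and 15 in total, TMM factors, quasi-likelihood F test with group as the only term, two-sided, Benjamini-Hochberg adjustment over all genes tested, threshold 0.05), and the standard error (SE) was the log2 fold change divided by the square root of F. The fit was tested on simulated data. No p is given for the members, whose values chose them. Named genes were the 9 members, up to 5 genes past the threshold and the 3 most abundant genes of each list, the 3 leading V segments of each library, and the 5 genes nearest in pattern to each sum. Any further gene was named with its values in view. Alternatives were other scaling, no filter, DESeq2 1.42.0, a replicate block, a prior count of 2, other splits of the members, totals without mitochondrial genes, and each library left out in turn. Positions, exon lengths and sequences came from GENCODE M21 (GRCm38/mm10, 1-based), which matched 53292 of 55367 symbols (96.2%). Sequences were aligned with Biopython 1.88 and plots drawn with matplotlib 3.10.9.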

Additional observations from a re-analysis of the deposited data

How the results depend on the processing

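The fitted log2 fold changes of Igkc, Ighm and Cd79b kept their sign under the alternatives of scaling, filter, tool, block, prior count and libraries left out. With raw library totals the median over all genes went from 0.05 to 0.39, and the values became 7.25, 0.85 and -1.82. Leaving out single libraries gave 2.57 to 7.80 for Igkc, 0.07 to 1.13 for Ighm and -3.78 to -1.30 for Cd79b.

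The 68 genes past the threshold (65 higher, 3 lower) became 134 with raw library totals, 583 (505 higher, 78 lower) without a filter on low counts, 416 in DESeq2, 215 with the replicate block, and 102 to 818 with single libraries left out (117 without WT 1, 241 without WT 2, 102 without KO 1 and 818, 513 higher and 305 lower, without KO 2), where the lone library was assumed to vary like the other group. Deviations of same-numbered libraries from their group means had a correlation of -0.179 over 11837 genes. A crossed replicate block, added after seeing the data, gave 647. The numbers are not stated to pair the libraries. Other B cell genes went from 0 past the threshold to 1, Cd72, lower, without a filter, in DESeq2 and with the crossed replicate block, with a range of 0 to 1 when single libraries were left out, reached without KO 2. Other plasma cell genes ranged from 0 to 1 (Irf4, without KO 2), and other immunoglobulin genes went from 0 to 3 without a filter, since 29 were then tested. With the replicate block these 3 counts were 0. Calls among the 9 genes, from which nothing is read, also moved. Without a filter, 3 of 7 tested passed (Igkc, Jchain and Cd79b), beside 2.74% of all genes. Igkc passed with the replicate block, and Igkc and Cd79b with the crossed one. The cause of these shifts was not tested.

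The mean plasma cell share of the counts on the 9 genes went from 80.9% to 0.678% in the libraries labeled WT and from 95.5% to 26.4% in those labeled KO when Ighm was counted with the B cell genes, and stayed between 80.8% and 80.9% and between 94.9% and 95.6% without Igkc or with Pou2af1 moved. Left out singly, the libraries gave 80.0% to 81.8% and 92.1% to 98.8%. With single libraries left out, the summed level of the plasma cell genes ranged from 71.7 to 170 CPM and from 174 to 532 CPM, and that of the B cell genes from 15.9 to 42.7 CPM and from 6.47 to 14.9 CPM, for WT and KO in turn. With Ighm counted among them, the B cell genes held 86.6 and 213 CPM in the libraries labeled WT and 270 and 184 CPM in those labeled KO, which turned the direction. A count of 0 allowed up to 0.557 to 0.747 CPM.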
